A study of Mus musculus with 6 samples.

Results

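Type 2 CC chemokines and their receptors were followed in lung tissue of mice given PM or vehicle. The 8 genes were taken by symbol from the deposited count tables: the ligands Ccl8, Ccl11, Ccl17, Ccl22 and Ccl24 and the receptors Ccr3, Ccr4 and Ccr8, of 23238 symbols in all. All animals were wild type. One group received PM and the other its vehicle, phosphate-buffered saline (PBS), both by the route labelled i.t., and the series title calls the exposure chronic. The labels used here spell out neither PM nor i.t. and give no dose, duration, age, sex or strain. Each group has 3 samples, numbered 1 to 3, but PBS replicates 1 and 2 carry the same count in each of 23282 entries. Their difference is below sampling noise, so the pair enters as 1 sample, which leaves 2 distinct PBS libraries (replicates 1 and 3) and 3 PM libraries. Separate animals are not stated for the samples of a group, so the p-values here reflect the spread of these samples alone, which may be technical.

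CC chemokines are small secreted proteins that bind to matrix and endothelium and draw white blood cells along a gradient through G protein-coupled receptors. In type 2 inflammation, the response known from allergy and worm infection, CCL11 and CCL24 (eotaxins) act on CCR3, the main chemokine receptor of eosinophils. CCL17 and CCL22, made largely by dendritic cells and macrophages, act on CCR4, carried by T helper 2 cells and regulatory T cells. Mouse CCL8 acts on CCR8, a receptor of T helper 2 and regulatory T cells. IL-4 and IL-13 signal through STAT6 and induce several of these ligands.

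Depth, library make-up and tissue identity bear on every value. Total counts ranged from 7410200 to 8827202 per library, and levels are given as CPM (counts divided by the library total after TMM scaling, which adjusts for library composition, and brought to a common total). At this depth 3 counts, the limit that a count of 0 allows, correspond to 0.348 to 0.43 CPM, a floor for counting error only. The label of lung tissue was matched by its markers: 9 epithelial and endothelial genes, among them Sftpc and Scgb1a1, summed to 43505 and 46825 CPM in PBS and to 42262 to 56644 CPM in PM, with none at 0. Genes of thymus and lymph node, which can be carried along with lung and express several of the 8 genes, summed to 24.2 and 32.1 CPM in PBS and to 23.1 to 43.1 CPM in PM. Of those 8 markers 2 were tested, Cr2 (log2 fold 0.063) and Fcer2a (0.24), and Rag2 was at 0 in every library. In these bulk samples, fewer cells of a type and less RNA per cell cannot be told apart.

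RefSeq promoter windows on GRCm38.p6 were found for 6 of the 8 genes, and 3 are shown because they belong to the ligand that passed the test, the ligand with the largest fold in the fit of all 5 libraries and the receptor of eosinophils. Each covers 250 bases up to the annotated start, 5′ to 3′ on the gene's plus strand, with capitals marking matches to the motifs searched.
Ccl17, chr8:94810203-94810452: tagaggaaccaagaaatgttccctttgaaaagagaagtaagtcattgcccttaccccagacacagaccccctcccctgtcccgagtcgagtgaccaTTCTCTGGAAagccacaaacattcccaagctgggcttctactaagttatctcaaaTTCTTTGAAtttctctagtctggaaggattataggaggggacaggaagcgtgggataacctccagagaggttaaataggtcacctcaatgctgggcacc
Ccl8, chr11:82114935-82115184: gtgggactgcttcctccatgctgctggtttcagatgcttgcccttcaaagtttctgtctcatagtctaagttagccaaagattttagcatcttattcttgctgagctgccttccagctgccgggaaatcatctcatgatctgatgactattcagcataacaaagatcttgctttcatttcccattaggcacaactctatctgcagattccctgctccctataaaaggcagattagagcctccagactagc
Ccr3, chr9:124021721-124021970: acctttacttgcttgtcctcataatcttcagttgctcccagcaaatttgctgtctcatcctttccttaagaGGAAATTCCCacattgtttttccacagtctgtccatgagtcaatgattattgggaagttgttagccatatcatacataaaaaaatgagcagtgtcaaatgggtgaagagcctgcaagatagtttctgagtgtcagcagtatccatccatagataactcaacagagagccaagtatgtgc

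The motifs were TTC and GAA with any 4 bases between them, the spacing that STAT6 prefers, the same with 3 bases between them, the spacing of other STAT proteins, and GGGA and TTCC with any 2 bases between them, one form of the NF-kB motif. All were searched on both strands. The Ccl17 window held the first at position 97 and the second at position 152, counted from the first base of the window, and these matches do not overlap. Across 32851 promoter windows of the same length, 5.85% held the STAT motif with the 4-base spacer and 7.02% that with the 3-base spacer. The Ccr3 window held the NF-kB form on the opposite strand at position 72, which 1.21% of all windows share. No match to these letters lay in the windows of Ccl8, Ccl22, Ccr4 or Ccr8. Such matches describe the letters of a window and are not evidence of binding.

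Among the ligands of CCR4, Ccl17 was higher in every PM library, with little spread among them. Ccl17 lies on chromosome 8 at 94810453 to 94812036 (GENCODE M21, GRCm38, plus strand). PBS replicates 1 and 3 held 36 and 58 counts of it, against 157, 120 and 140 in PM replicates 1, 2 and 3, or 4.17 and 7.16 CPM against 18.3, 17.2 and 17.7 CPM. The groups did not overlap, and the lowest PM library stood 2.4 times above the highest PBS library. Ccl17 rose from 5.67 ± 2.11 CPM (SD, n = 2) to 17.7 ± 0.58 CPM (SD, n = 3), a 3.13-fold change. The log2 fold was 1.65 ± 0.27 SE (95% interval 1.06 to 2.24; two-sided quasi-likelihood test of edgeR, Benjamini-Hochberg adjusted p = 0.0379 over 14057 tested genes). It was the only 1 of the 8 genes called at an adjusted p below 0.05, a threshold that 0.142% of tested genes passed as higher in PM and 0.228% in either direction. The call was lost without PBS replicate 1 (log2 fold 1.31, adjusted p = 0.444 by edgeR), PBS replicate 3 (2.08, 0.0883) or PM replicate 1 (1.62, 0.0954), with limma-voom (1.70, 0.0888) and in edgeR without robust estimation (1.65, 0.0568). It held without PM replicate 2 or 3 (edgeR, adjusted p = 0.0271 and 0.019).

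Ccl22 sits 58.8 kb from Ccl17, at 94745590 to 94751699 on chromosome 8, and varied more among PM libraries. It had 19 and 10 counts in the PBS libraries, replicate 1 before 3, and 48, 106 and 22 in PM replicates 1, 2 and 3, or 2.2 and 1.23 CPM against 5.61, 15.2 and 2.77 CPM. Each PM library exceeded both PBS libraries, although PM replicate 3 exceeded PBS replicate 1 only 1.26 times. The log2 fold was 2.17 ± 0.76 SE (95% interval 0.41 to 3.92) and did not pass (adjusted p = 0.274, edgeR). Without PM replicate 3, the lowest of the PM libraries, the log2 fold was 2.57 (adjusted p = 0.0344 by edgeR, where 1.87% of tested genes were called higher). It was 1.28 without PM replicate 2, the highest (adjusted p = 0.385 by edgeR).

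The pair differed in how its counts were divided in each library. Ccl17 supplied 65.5% of their joint counts in PBS replicate 1 (95% exact Clopper-Pearson interval 51.4% to 77.8%, 55 counts) and 85.3% in PBS replicate 3 (74.6% to 92.7%, 68 counts). In PM replicates 1, 2 and 3 the share was 76.6% (70.2% to 82.2%, 205 counts), 53.1% (46.4% to 59.7%, 226 counts) and 86.4% (80.2% to 91.3%, 162 counts). The interval of PM replicate 2 lay below those of the other PM libraries and of PBS replicate 3 and overlapped that of PBS replicate 1. These intervals cover counting error only.

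Ccl8 had the largest log2 fold of the 7 tested genes in the fit of all 5 libraries, ahead of Ccl24, but this order changed when some of the libraries were left out. Ccl24 exceeded it without PBS replicate 1 (5.96 against 4.73) or PM replicate 1 (5.35 against 5.03), and Ccl11 and Ccr3, with 1 and 0 PBS counts left, exceeded it without PBS replicate 3. Ccl8 lies on chromosome 11 at 82115185 to 82116799 on the plus strand. PBS replicate 1 had 5 counts of it and PBS replicate 3 had 7, whereas PM replicates 1, 2 and 3 had 192, 264 and 80. These correspond to 0.579 and 0.864 CPM in PBS and to 22.4, 37.8 and 10.1 CPM in PM. The lowest PM library was 11.7 times above the highest PBS library, and the PM libraries differed among themselves by 3.75 times. Mean levels were 0.722 ± 0.201 CPM (SD, n = 2) in PBS and 23.5 ± 13.9 CPM (SD, n = 3) in PM. The log2 fold was 4.99 ± 0.78 SE (95% interval 3.07 to 6.91), which did not pass the threshold over all genes (adjusted p = 0.069, edgeR). Since both PBS libraries together held 12 counts, the size of this fold is uncertain. Ccl8 passed without PM replicate 2 (log2 fold 4.48, edgeR adjusted p = 0.00258) and without PM replicate 3 (5.36, 0.00017), with 0.561% and 1.87% of tested genes called higher there. It did not pass without PM replicate 1 (5.03, edgeR adjusted p = 0.146) or without either PBS library (4.73 without replicate 1 and 5.29 without replicate 3, edgeR adjusted p = 0.537 and 0.53). It also passed by DESeq2 (5.03, DESeq2 adjusted p = 4.84e-13) and in the edgeR fit without robust estimation (4.99, adjusted p = 0.0321, with 0.128% of tested genes called higher). It did not pass with limma-voom (4.72, adjusted p = 0.246) or in edgeR with no filter on low counts (4.99, adjusted p = 0.132).

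**Figure D1:**
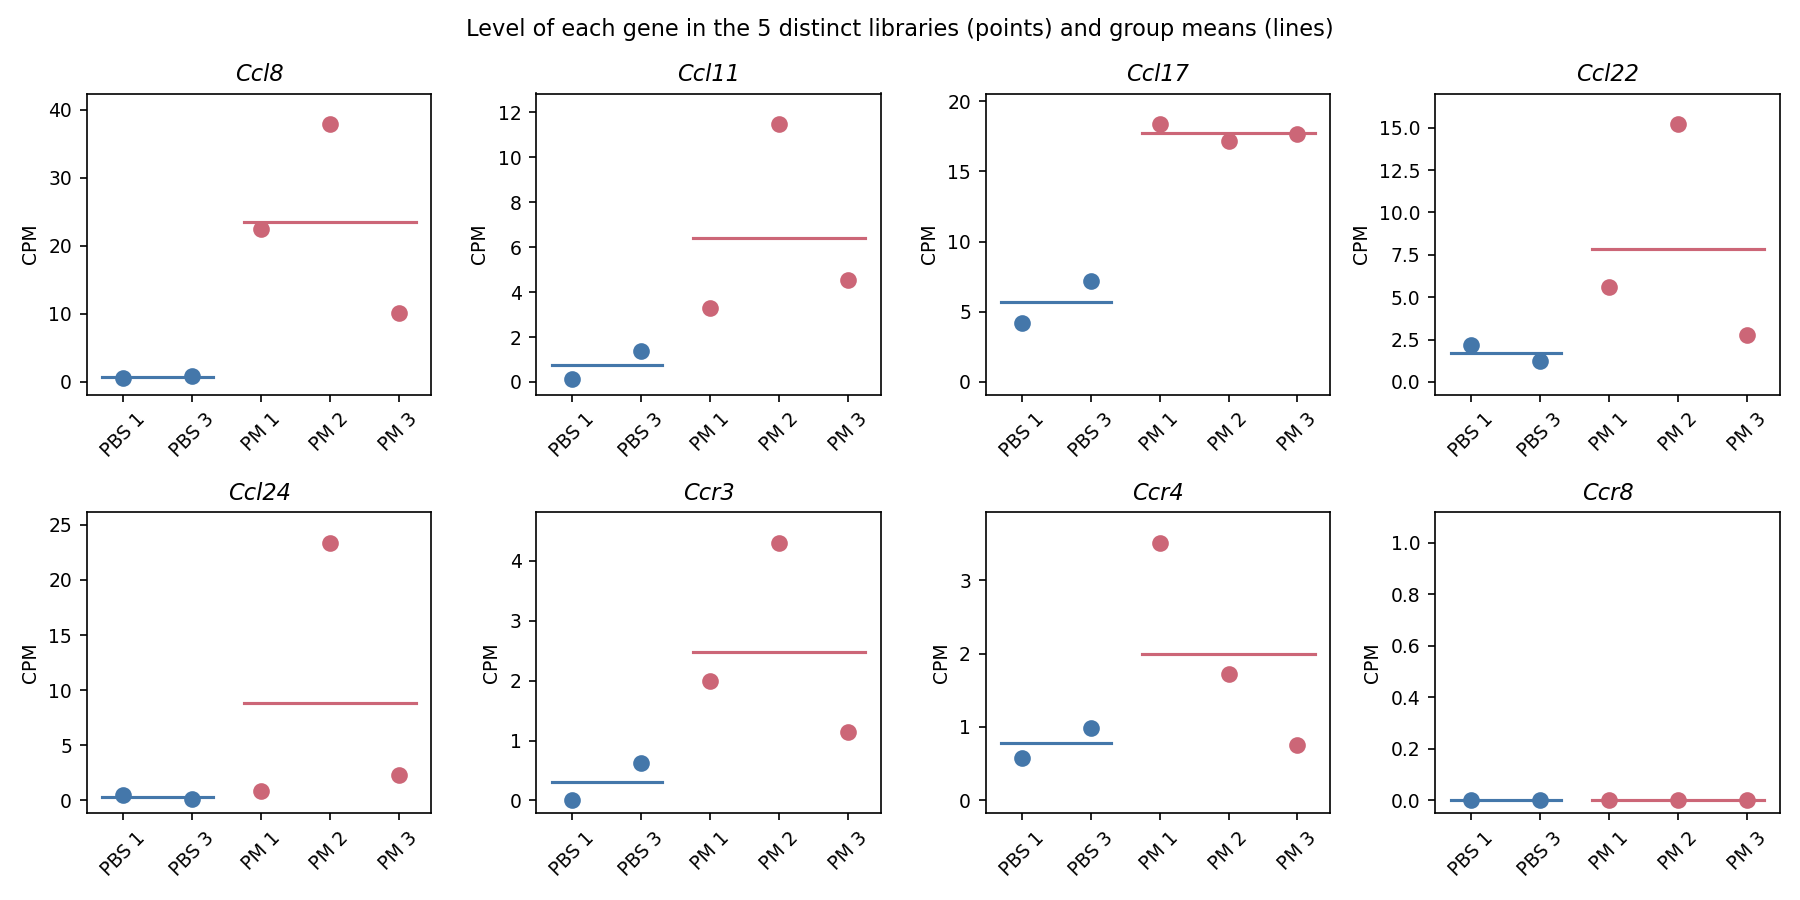
Level in CPM (linear axis from 0, its own scale in each panel) of the 8 genes in the 5 distinct libraries; points are libraries, blue for PBS and red for PM, and lines are group means. Ccl17 lies between 17.2 and 18.3 CPM in all PM libraries, PM replicate 2 leads for Ccl8, Ccl11, Ccl22, Ccl24 and Ccr3, and Ccr8 is at 0 throughout.

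The eotaxins showed folds with wide intervals. Ccl11, made by fibroblasts, smooth muscle and epithelium in many tissues, lies on chromosome 11 at 82057823 to 82062955. In PBS it had 1 count (replicate 1) and 11 counts (replicate 3), against 28, 80 and 36 in PM replicates 1, 2 and 3 (0.116 and 1.36 CPM against 3.27, 11.5 and 4.54 CPM). Every PM library was above both PBS libraries, by at least 2.41 times. Its log2 fold was 3.11 ± 0.88 SE (95% interval 1.10 to 5.12; adjusted p = 0.172, edgeR). Ccl11 was called by DESeq2 (3.14, adjusted p = 0.00638) and in the edgeR fit on all 6 deposited samples (3.59, adjusted p = 0.0471). The PBS libraries differed from each other most for this ligand, so the fold ranged from 2.22 without PBS replicate 1 to 5.60 without PBS replicate 3. Only 1 count remained in PBS in the latter case.

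Ccl24, the eotaxin typical of alternatively activated macrophages, had most of its PM counts in 1 library. It lies on chromosome 5 at 135569937 to 135573049 on the minus strand. PBS replicate 1 held 4 counts and PBS replicate 3 a single one, against 7, 163 and 18 in PM replicates 1, 2 and 3, or 0.464 and 0.123 CPM against 0.818, 23.4 and 2.27 CPM. PM replicate 2 was 28.6 times above PM replicate 1, whereas PM replicate 1 was 1.76 times above PBS replicate 1. The log2 fold was 4.80 ± 2.38 SE, with a 95% interval from -2.05 to 11.64 that includes 0 (adjusted p = 0.506, edgeR). It was 5.96 without PBS replicate 1 and 4.18 without PBS replicate 3 by edgeR. With the replicate number as a block it was 2.23 (adjusted p = 0.171, edgeR). PM replicate 2 has no PBS partner in that block, so this value rests on the libraries of replicates 1 and 3. Without PM replicate 2, and likewise without PM replicate 3, too few libraries passed the filter on low counts for Ccl24 to be tested.

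**Figure D2:**
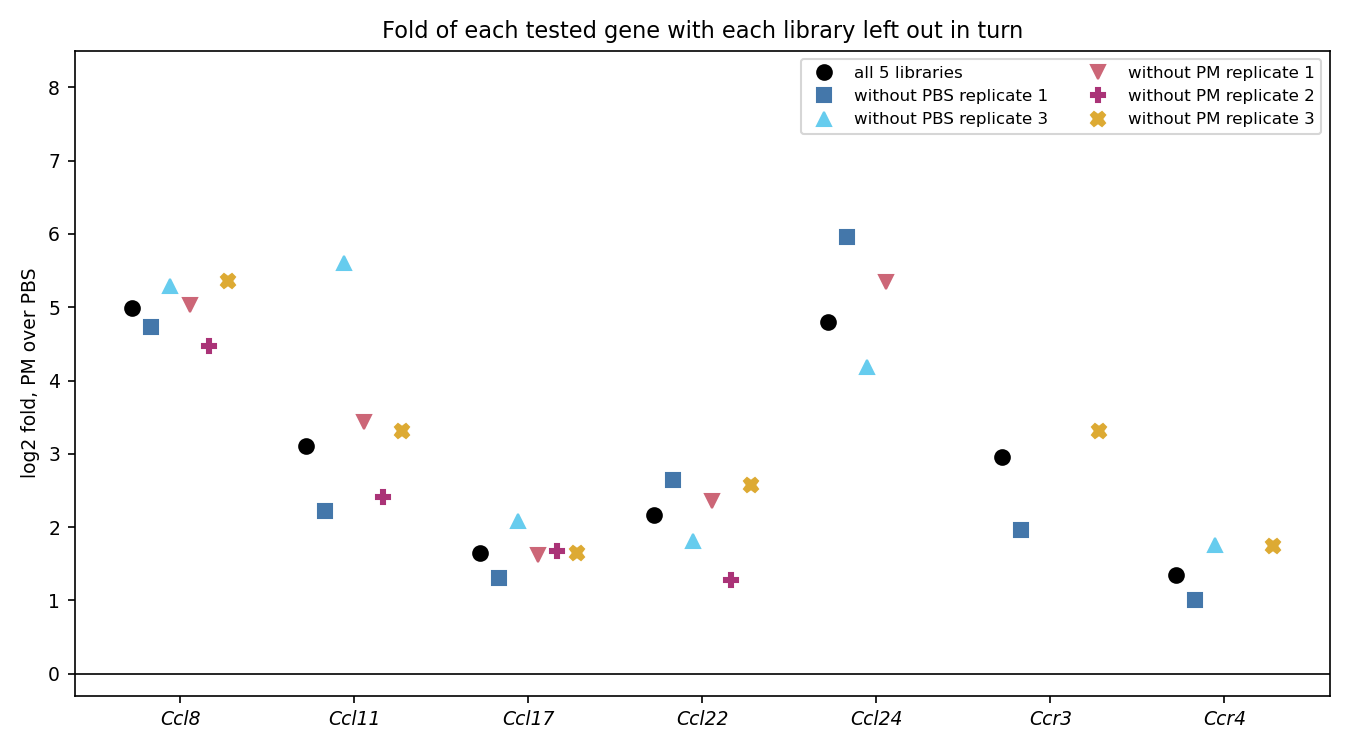
Log2 fold of PM over PBS (vertical axis) for the 7 tested genes with all 5 libraries (black circles) and with each library left out; a fold is missing where the gene was not tested, and for Ccr3 without PBS replicate 3, where the remaining PBS library has 0 counts. All plotted folds are above 0; those of Ccl17 span 1.31 to 2.08 and those of Ccl11 span 2.22 to 5.60.

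The receptors had few counts in every library, at most 30. Ccr3, the eotaxin receptor, lies on chromosome 9 at 124021972 to 124031689. PBS replicate 1 had 0 counts of it and PBS replicate 3 had 5, against 17, 30 and 9 in PM replicates 1, 2 and 3, or 0 and 0.617 CPM against 1.99, 4.3 and 1.13 CPM. The groups did not overlap, with PM replicate 3 lying 1.84 times above PBS replicate 3. The log2 fold was 2.96 ± 1.04 SE (95% interval 0.68 to 5.24; adjusted p = 0.237, edgeR), and it was 1.96 without PBS replicate 1. Without PM replicate 1 or PM replicate 2 Ccr3 was not tested.

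Ccr4, the receptor for CCL17 and CCL22, lies on chromosome 9 at 114490316 to 114504916 on the minus strand. PBS replicate 1 held 5 counts of it and PBS replicate 3 held 8, compared with 30, 12 and 6 in PM replicates 1, 2 and 3, or 0.579 and 0.988 CPM against 3.51, 1.72 and 0.757 CPM. The groups overlapped, since PM replicate 3 lay between the PBS libraries. The log2 fold was 1.35 ± 0.79 SE, with a 95% interval from -0.38 to 3.08 (adjusted p = 0.501, edgeR). PM replicate 1 was highest for Ccr4 and also for its ligand Ccl17, though the PM libraries differed by 4.63 times for the receptor and by 1.07 times for the ligand. Ccr8, the receptor for mouse CCL8, on chromosome 9 at 120092114 to 120094906, had 0 counts in all 5 libraries. It was therefore not detectable above 0.348 to 0.43 CPM, while its ligand stood at 10.1 to 37.8 CPM in PM.

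Of the 8 genes, 7 passed the filter on low counts, which needs about 1.31 CPM in at least 2 libraries. Ccl17 passed it in both PBS libraries. Ccl22 passed it in PBS replicate 1 and, before TMM scaling, lay right at it in PBS replicate 3 (10 counts). Ccl11 passed it in 1 PBS library, whereas Ccl8, Ccl24, Ccr3 and Ccr4 did so in none and entered through PM libraries alone. For 6 of the 8 genes the lowest PM library exceeded the highest PBS library, an order seen for 15.5% of tested genes. Because Ccl8, Ccl11, Ccl24, Ccr3 and Ccr4 needed at least 1 PM library to pass the filter, that number is a description and supports no statement about the group. The number of the 8 genes called changed with the procedure, as did the share of all tested genes called higher. DESeq2 called 4 of them, Ccl8, Ccl11, Ccl17 and Ccl22 (1.9% of tested genes higher). The fit on 6 deposited samples called the first 3 of these (2.5%), the fit with the replicate number as a block Ccl8 and Ccl17 (1.57%), an adjusted p below 0.10 by edgeR the same pair (0.896%) and limma-voom 0 (0.0854%).

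Per kb of merged exon, which allows levels of different genes to be compared, Ccl17 was the most abundant of the 8 in PBS at 11.0 ± 4.11 CPM per kb (SD, n = 2). Ccl8 was next at 1.41 ± 0.394, followed by Ccl22 (0.739 ± 0.294) and Ccl11 (0.681 ± 0.812), a pair whose difference is smaller than its spread. Ccr4 (0.253 ± 0.093), Ccl24 (0.227 ± 0.186) and Ccr3 (0.094 ± 0.133) overlapped in the same scale. In PM the mean of Ccl8 was 45.9 ± 27.2 CPM per kb (SD, n = 3) against 34.5 ± 1.13 for Ccl17. Their order was not the same in every PM library: Ccl8 was above Ccl17 in replicates 1 (43.9 against 35.7) and 2 (74.0 against 33.5) and below it in replicate 3 (19.7 against 34.3). Ccl24 (6.81 ± 9.74), Ccl11 (5.94 ± 4.08) and Ccl22 (3.38 ± 2.8) did not differ beyond their spread, nor did Ccr3 (0.756 ± 0.5) and Ccr4 (0.645 ± 0.451). These levels assume that reads fell on all annotated exons, since the sources used here do not name the annotation used for counting.

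The other CC chemokines and receptors were described from a fixed list of 16 ligands and 10 receptors, including atypical receptors that take up chemokines without signalling through G proteins. Of 12 ligands tested, 0 passed edgeR's test over all genes. At an unadjusted p below 0.05, 5 were higher and 1 lower, where 7.26% of all tested genes were higher and 6.05% lower. DESeq2 called 3 and limma-voom 1 (2.72% and 0.121% of tested genes in either direction). Their median log2 fold was 1.18, against 0.0077 over all tested genes. Ccl6, a macrophage chemokine found in rodents, stood at 103 and 178 CPM in PBS and 505, 582 and 363 CPM in PM (log2 fold 1.78 ± 0.32 SE; adjusted p = 0.107, edgeR). Ccl9, its close relative, had a log2 fold of 2.07 ± 0.56 SE. The monocyte attractants Ccl7, Ccl12 and Ccl2 were at 3.76 ± 1.10, 1.95 ± 0.83 and 1.36 ± 0.59 SE, with adjusted p = 0.179, 0.337 and 0.348 by edgeR. Ccl5, made by cytotoxic lymphocytes, was at -0.86 ± 0.33 SE (adjusted p = 0.319, edgeR), with every PM library below both PBS libraries, as for 16.1% of tested genes. DESeq2 called Ccl6, Ccl7 and Ccl9.

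Among the other receptors, 8 were tested and edgeR called 1 higher (0.142% of tested genes), Ccr2, the receptor for CCL2 and CCL7 on monocytes. DESeq2 called 2 and limma-voom 1 (2.72% and 0.121% of tested genes in either direction). Ccr2 was at 25.7 and 26.1 CPM in PBS and 56.1, 74.4 and 58.6 CPM in PM (log2 fold 1.28 ± 0.16 SE; edgeR adjusted p = 0.0142). That call was lost without PBS replicate 1 or PBS replicate 3 (edgeR adjusted p = 0.379 and 0.174). Ccr1, which binds CCL6 and CCL9, was at 2.05 ± 0.46 SE (edgeR adjusted p = 0.0746). The atypical receptor Ackr2 scavenges inflammatory CC chemokines, CCL11, CCL17 and CCL22 among them. It stood at 34.2 and 34.9 CPM in PBS and at 17.1, 22.2 and 25.7 CPM in PM, where its groups did not overlap (log2 fold -0.68 ± 0.19 SE; edgeR adjusted p = 0.148). Ackr4, which takes up CCL19, CCL21 and CCL25, was at -0.70 ± 0.24, and Ccrl2, an atypical receptor that presents chemerin, at -0.45 ± 0.18. Exons of Ackr4 overlap those of Acad11 on the other strand, so its reads may be shared. At an unadjusted p below 0.05, 2 of the 8 were higher and 3 lower (7.26% and 6.05% of tested genes), and their median log2 fold was 0.091.

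**Figure D3:**
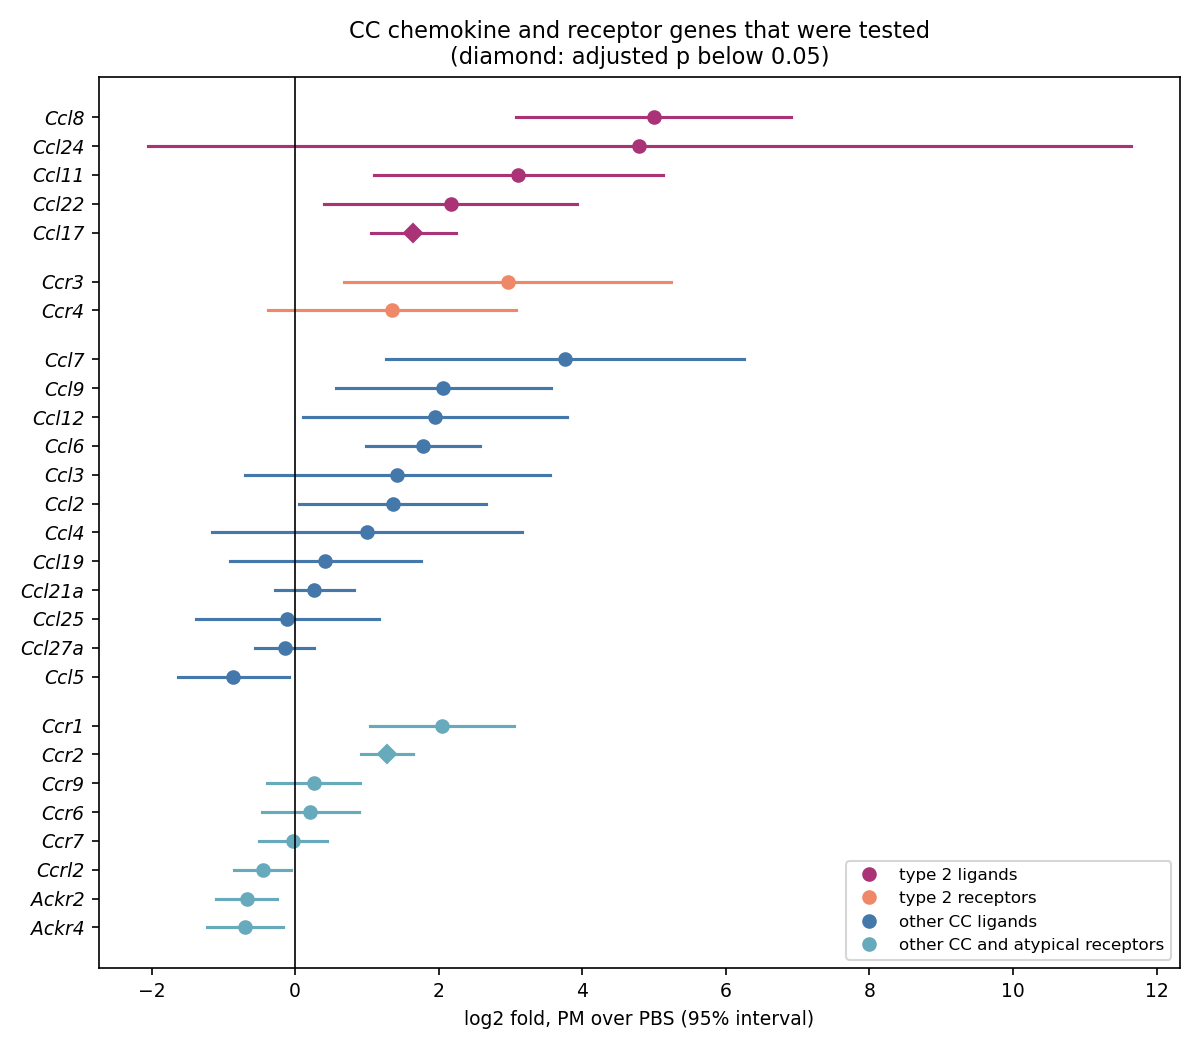
Log2 fold of PM over PBS with its 95% interval (horizontal axis) for the tested CC chemokine, receptor and atypical receptor genes of the lists, grouped by colour; diamonds passed an adjusted p below 0.05. Ccl17 and Ccr2 are the diamonds, and the interval of Ccl24 runs from -2.05 to 11.64.

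Several of these genes lie side by side. On chromosome 11 Ccl2, Ccl7, Ccl11, Ccl12 and Ccl8 follow each other, with Ccl12 ending 11.8 kb before Ccl8 and Ccl7 ending 10.3 kb before Ccl11. Their log2 folds in that order were 1.36, 3.76, 3.11, 1.95 and 4.99, and all 5 had every PM library above both PBS libraries, the order of 15.5% of tested genes. The filter favours that order: Ccl7, Ccl12 and Ccl8 were under it in both PBS libraries (0.232 and 0.37 CPM for Ccl7, 0.811 and 0.247 CPM for Ccl12) and Ccl11 in 1, so each needed PM libraries to be tested. Ccl1, the next CC gene of the list beyond Ccl8 and a further ligand of CCR8, had 4 counts in PM replicate 1 and 0 elsewhere. Around Ccr3 on chromosome 9, Ccr1 and Ccr2 had log2 folds of 2.05 and 1.28 against 2.96 for Ccr3. Ccl26, an eotaxin gene located 6.37 kb from Ccl24, had 0 counts in every library. Reads of these related genes could be shared where sequences are alike, and differences between neighbours were not tested.

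**Figure D4:**
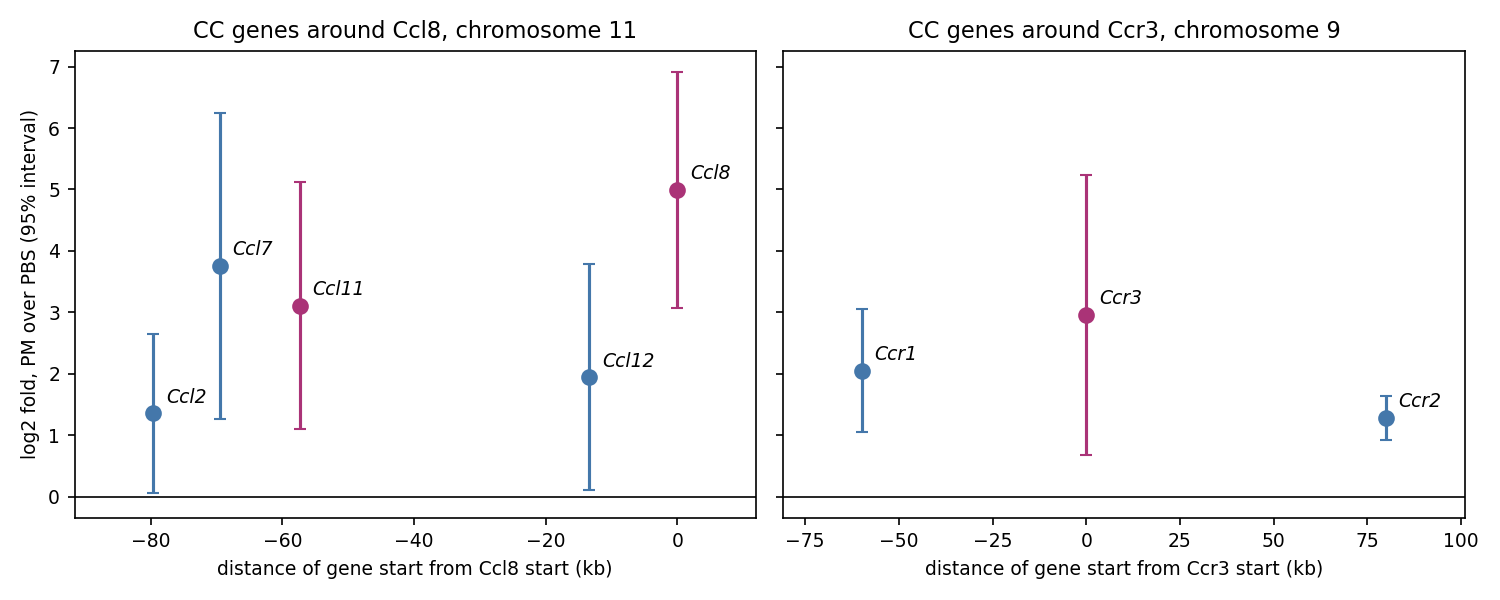
Log2 fold of PM over PBS with 95% interval (vertical axis) against the distance of each gene start from that of Ccl8 or Ccr3, in kb (horizontal axis); purple marks type 2 genes and blue their neighbours. All points are above 0, from 1.36 to 4.99 around Ccl8 and from 1.28 to 2.96 around Ccr3.

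Transcripts of the cytokines upstream were at the edge of detection. Il4, Il5 and Il13, which encode the type 2 cytokines themselves, had at most 2 counts in any library. Il4 had 2 counts in PBS replicate 3 and 1 in PM replicate 1, Il5 had 2 in PM replicate 1, and Il13 had 1 in PM replicate 2. Of the 19 genes listed for IL-4 and IL-13 signalling, 15 were tested and 0 passed edgeR's test (unadjusted p below 0.05 for 5 higher and 1 lower, with 2 called by DESeq2 and 1 by limma-voom). Over all tested genes 7.26% were higher and 6.05% lower at that p. DESeq2 called 2.72% of them in either direction and limma-voom 0.121%. The median log2 fold of the 15 was 0.41. Retnla, a secreted product of alternatively activated macrophages, had 34.1 and 13.5 CPM in PBS and 1016, 5323 and 1222 CPM in PM (log2 fold 6.72 ± 1.49 SE; edgeR adjusted p = 0.247). Like Ccl8, Ccl11, Ccl22, Ccl24 and Ccr3, it was highest in PM replicate 2. Mrc1, the macrophage mannose receptor, was at 0.54 ± 0.14 SE, and Il4ra, the receptor chain shared by both cytokines, at -0.34 ± 0.12 (edgeR adjusted p = 0.121 and 0.236).

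Markers of the cells that carry these receptors differed in how far they could be detected. The eosinophil granule genes Epx and Prg3 were at 0 in both PBS libraries and had at most 3 counts in any PM library, Prg2 had at most 6 counts anywhere and Il5ra at most 3. Ear6, an eosinophil-associated ribonuclease that macrophages also express and that has close paralogs, was at 10.8 and 21.1 CPM in PBS and 44.4, 41.6 and 26.6 CPM in PM (log2 fold 1.24 ± 0.33 SE; edgeR adjusted p = 0.158). Csf2rb2 and Siglecf, the latter shared with alveolar macrophages, were at 1.28 ± 0.65 and 0.61 ± 0.48 SE. The 7 eosinophil markers summed to 15.1 and 34.7 CPM in PBS and to 39.6 to 65.8 CPM in PM. None of the 3 tested passed edgeR's test (unadjusted p below 0.05 for 1 higher, 1 called by DESeq2 and 0 by limma-voom). Over all tested genes 7.26% were higher at that p, and DESeq2 called 2.72% in either direction and limma-voom 0.121%.

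T helper 2, regulatory T and innate lymphoid cell markers, the groups that bear CCR4 and CCR8, summed to 96.6 and 110 CPM in PBS and to 97.2 to 144 CPM in PM. Among 10 tested 0 passed edgeR's test, while the unadjusted p was below 0.05 for 5 higher and 1 lower (7.26% and 6.05% of tested genes), DESeq2 called 1 (2.72% of tested genes in either direction) and limma-voom 0 (0.121%). The median log2 fold of the 10 tested was 0.56. Il1rl1, the IL-33 receptor, was at 1.88 ± 0.38 SE (edgeR adjusted p = 0.0592), Icos, a T cell costimulator, at 1.72 ± 0.52 and Areg, a growth factor, at 0.90 ± 0.34. Klrg1 was at -0.97 ± 0.38 SE, with every PM library below both PBS libraries, as for 16.1% of tested genes. Cd3e (0.46 ± 0.43 SE), Foxp3 (0.41 ± 0.40), Maf (-0.19 ± 0.16) and Batf (-0.043 ± 0.47) overlapped between the groups. Exons of Foxp3 overlap those of other genes, Ccdc22 and Ppp1r3f among them, so its reads may be shared. Icos stood at 10.5, 11.0 and 3.53 CPM in PM replicates 1, 2 and 3. PM replicate 3 was thus the lowest PM library for it, as it was for Ccr4, Ccr3, Ccl8 and Ccl22. In contrast, Ccl11 and Ccl24 were lowest in PM replicate 1 and Ccl17 in PM replicate 2, while Areg was highest in PM replicate 3. Mast cell and basophil markers summed to 173 and 197 CPM in PBS and to 114 to 188 CPM in PM, carried mainly by Kit (log2 fold -0.18) and Gata2 (-0.41), which other lung cells express. Cma1, a mast cell protease, was at -1.17 ± 0.66 SE, Mcpt8 was at 0 everywhere, and of 3 tested 0 passed edgeR's test, 0 had an unadjusted p below 0.05 and 0 were called by DESeq2 or limma-voom.

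Markers of cells known to make these ligands stood at the following levels. Dendritic cell markers summed to 137 and 145 CPM in PBS and to 178 to 301 CPM in PM, with PM replicate 2 highest, and none was at 0 in any library. Their median log2 fold was 0.99 over 10 tested, of which 0 passed edgeR's test, the unadjusted p was below 0.05 for 6 higher and 1 lower (7.26% and 6.05% of tested genes), DESeq2 called 4 (2.72% of tested genes in either direction) and limma-voom 0 (0.121%). Clec10a and Mgl2, lectins of dendritic cells and macrophages, were at 0.98 ± 0.20 and 1.45 ± 0.36 SE, and Fscn1, an actin bundler of mature dendritic cells, at 0.99 ± 0.29. Not all of the other members shared this rise. Clec9a was at -0.41 ± 0.15 SE, with every PM library below both PBS libraries, as for 16.1% of tested genes. Its exons overlap those of Clec1b on the same strand, so its reads may be shared. Xcr1 (0.35 ± 0.95 SE) and Zbtb46 (0.31 ± 0.47 SE) overlapped between the groups. Interstitial macrophage markers summed to 561 and 699 CPM in PBS and to 644 to 883 CPM in PM, with a median log2 fold of 0.84. Lyve1, which lymphatic endothelium also expresses, made up much of that sum (267 and 425 CPM in PBS and 239, 234 and 569 CPM in PM, log2 fold 0.0064). Of the 11 tested 0 passed edgeR's test, with the unadjusted p below 0.05 for 3 higher, 1 called by DESeq2 and 0 by limma-voom. The shares over all tested genes given above apply here and to the alveolar macrophage markers. Adgre1, a macrophage surface receptor, and C1qc, a complement component, were at 0.84 ± 0.27 and 1.43 ± 0.44 SE, and Folr2, a folate receptor of macrophages, at 1.93 ± 0.77. Alveolar macrophage markers summed to 333 and 526 CPM in PBS and to 649 to 795 CPM in PM, with a median log2 fold of 1.24 over 9. Car4, which lung endothelium also expresses, supplied 225 and 283 CPM of it in PBS and 225 to 298 CPM in PM (log2 fold 0.091). Of these 0 passed edgeR's test (unadjusted p below 0.05 for 3 higher, 2 called by DESeq2 and 0 by limma-voom). Plet1, Itgax and Fabp4 in it were at 0.89 ± 0.18, 1.49 ± 0.43 and 1.95 ± 0.59 SE.

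Fibroblast and smooth muscle markers, from cells known to make CCL11, were near or below their PBS levels in the median. Those of fibroblasts summed to 1226 and 1263 CPM in PBS and to 889 to 1186 CPM in PM, with a median log2 fold of -0.23. Pdgfra was at -0.78 ± 0.14 SE (edgeR adjusted p = 0.0525), Col13a1 at -0.79 ± 0.20 and Tcf21 at -0.47 ± 0.16. Of 8 tested 0 passed edgeR's test, the unadjusted p was below 0.05 for 0 higher and 3 lower, with 2 called by DESeq2 and 0 by limma-voom. Over all tested genes 7.26% were higher and 6.05% lower at that p, and DESeq2 called 2.72% in either direction and limma-voom 0.121%. Smooth muscle markers summed to 320 and 385 CPM in PBS and to 345 to 488 CPM in PM, with a median log2 fold of 0.040. Acta2 was at 0.61 ± 0.17 SE, Tagln at 0.20 ± 0.20 and Des at -0.74 ± 0.19, with 0 of 5 past edgeR's test (unadjusted p below 0.05 for 1 higher and 1 lower, 2 called by DESeq2 and 0 by limma-voom). The lung epithelial and endothelial genes nearest to the threshold were Ager (-0.41 ± 0.11 SE), Pecam1 (-0.35 ± 0.10) and Sftpa1 (0.40 ± 0.14), with 0 of 9 past edgeR's test (unadjusted p below 0.05 for 1 higher and 2 lower, 1 called by DESeq2 and 0 by limma-voom). The part of cell composition in the chemokine levels was not tested.

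For each of the 7 tested genes, the named genes with the most similar profile were taken by Euclidean distance of log2(CPM + 0.5), relative to the PBS mean, over the 5 libraries. Ccl17 was closest to Cyp1b1, a cytochrome P450 of aryl hydrocarbon metabolism (distance 0.482), Atp6v0d2, a proton pump subunit (0.485), and Phgr1 (0.540). Ccl22 was closest to Trem2, a lipid-sensing receptor of macrophages (0.404), C1qa, a complement component (0.471), and Top2a, a topoisomerase of dividing cells (0.481). For Ccl8 they were Alox12e, a lipoxygenase (1.11), Mmp12, the macrophage elastase (1.25), and Rnase2a, an eosinophil-associated ribonuclease (1.34). Ccl11 was closest to the cystine transporter Slc7a11 (1.16), Serpina3f (1.18) and the adrenergic receptor Adra2a (1.24). Ccl24 was closest to the chemokines Cxcl9 (1.44) and Cxcl5 (1.53) and to Fxyd4 (1.53), each highest in PM replicate 2. Ccr3 was closest to coagulation factor F10 (0.435), Ccl9 (0.471) and Gas2l3 (0.538), and Ccr4, among the genes reported here, to Clec2i (0.506) and Hyls1 (0.548). The pseudocount of 0.5 pulls profiles of low genes such as the receptors toward 0, and the distances are a description with no test.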

How the data were processed

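Gene counts came from lung RNA libraries made with the SENSE mRNA-Seq kit, per the labels' protocols. TopHat, Cufflinks and mm10 are named in the submitters' processing notes. For their roles, the counting program, the annotation and strand use: not given in the sources used here. Deposited values are raw counts per gene symbol, without normalization. The sample annotated as PBS replicate 2 carries the header and values of PBS replicate 1. Its table was used only in 1 alternative. A blank entry was dropped, and 44 entries sharing a symbol with a better counted one (0.0251% of counts) were set aside. edgeR 4.0.16 in R 4.3.3 was run with filterByExpr, TMM and robust quasi-likelihood fits, with no covariates. The adjustment was Benjamini-Hochberg and SE was derived from the log2 fold and the F statistic. Alternatives used limma 3.58.1 and DESeq2 1.42.0. The procedure was run on simulated counts with a fixed spread and with folds set only in better counted genes. That run does not cover genes with few counts or wide spread, as most of the 8 have. Coordinates and exon lengths are from GENCODE M21. Promoters are from RefSeq. The 8 genes and 13 other lists were chosen with earlier results of these data known. Beside the 8 genes, called list members were named, then those with the smallest p, up to 3 a list (6 for CC genes), and up to 3 per gene by profile distance. Genes outside that rule (Il4, Il5, Il13, Epx, Prg2, Prg3, Il5ra, Mcpt8, Rag2, Ccl1, Ccl26, Sftpc, Scgb1a1, Klrg1, Cd3e, Foxp3, Maf, Batf, Clec9a, Xcr1, Zbtb46, Lyve1 and Car4) were named after their values were seen. Exons of the 8 genes overlap no other annotated gene. Some genes are not reported here; they are left out of the lists, their counts and the profile comparison, and stay in the fit over all genes.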

Additional observations from a re-analysis of the deposited data

How the results depend on the processing

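Over the alternative fits the 7 tested type 2 genes gave 96 fold values, all positive. These fits reuse the same libraries, and Ccl8, Ccl24, Ccr3 and Ccr4 passed the filter through PM libraries alone. For the latter a positive sign was favoured beforehand, so the shared sign is a description only. Of the 96 values, 81 stayed on their side of the threshold, 5 lost a call (all Ccl17) and 10 gained one. Of the 8 genes 1 was called, against 4 with DESeq2, 0 with limma-voom, 3 with all 6 tables, 2 with the replicate block, 2 at an adjusted p below 0.10, and 0 to 3 with a library left out. Genes called (higher, lower) were 32 (20, 12). They became 275 (165, 110) with no filter, 382 (267, 115) with DESeq2, 17 (12, 5) with limma-voom, 635 (346, 289) with all 6 tables, 353 (221, 132) with the replicate block and 206 (126, 80) at an adjusted p below 0.10. Without robust estimation 5 were lower, and Ccl8 was called in place of Ccl17 (adjusted p = 0.0321 and 0.0568, edgeR). With each library left out in turn there were 1 to 427 calls (1 to 261 higher, 0 to 166 lower). The fit on all 6 tables counts 1 library 2 times, and the cause of the other shifts was not tested. With a PBS library left out, the remaining one is assumed to vary like the PM libraries. The labels used here do not say whether samples of the same number share a batch. Deviations of same-numbered PBS and PM libraries correlated at -0.027 (replicate 1) and 0.066 (replicate 3) across genes. With 2 PBS libraries the PBS deviations mirror each other, so these values cannot decide whether a batch is shared. PM replicate 2 has no PBS partner under the block and does not inform its folds. Ccl17 (log2 fold 1.70, adjusted p = 0.00356, edgeR) and Ccl8 (4.43, 1.42e-05) were called in the block fit. Of the other named genes, Fcer2a (log2 fold -0.13 to 0.75 with a library left out) reversed without PBS replicate 3, and Cr2 (-0.31 to 0.28) without PBS replicate 3 (-0.0035) and PM replicate 1. Depth limits Ccr8, Ccr3, Ccr4 and the PBS levels of Ccl8, Ccl11 and Ccl24.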
